A study of Mus musculus with 6 samples.

Results

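The oncostatin M and interleukin-6 receptor axis was examined in tibialis anterior (TA) muscle through 10 genes chosen by symbol from the deposited TPM tables and joined by gene ID to the count table. The genes were *Osmr*, *Il6ra*, *Il6st* and *Lifr* (receptor subunits), *Jak1* and *Jak2* (kinases), *Stat3* (transcription factor), *Socs3* (feedback inhibitor), and *Bcl3* and *Serpina3n* (genes induced in inflamed or wasting muscle). They are 10 of 45777 genes in the count table and of 16800 genes in the TPM tables, and all 10 were among the 16188 genes tested. Male C57BL/6J mice, 24 months old in the labels, received intraperitoneal injections of vehicle (3 mice) or of BML-260 at 5 mg/kg (3 mice) for 1 month. BML-260 is a small molecule inhibitor of the phosphatase DUSP22, and the vehicle was DMSO with tween 80. Total RNA of whole TA muscle gave 1 library per mouse, with 39793301 to 52165766 counts per vehicle library and 39522890 to 56998875 per BML-260 library. Whole muscle holds fibers, vessels, connective tissue and blood cells, so fewer cells of a type and less RNA per cell cannot be told apart.

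Cytokines of this family signal through a shared subunit, gp130, which is the product of *Il6st*. Oncostatin M pairs gp130 with OSMR, leukemia inhibitory factor pairs it with LIFR, and interleukin-6 binds IL-6R (the product of *Il6ra*) before gp130 is engaged. The receptors hold JAK kinases, which phosphorylate STAT3. STAT3 then enters the nucleus and drives its targets, among them *Socs3*, whose protein binds gp130 and JAK and shuts the signal down. In skeletal muscle, STAT3 signaling is known both from satellite cell activation after injury and from wasting in systemic inflammation.

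STAT3 binds palindromic sites of the form TTCNNNGAA, a motif that reads the same on both strands. The motif was searched in the RefSeq promoter windows of GRCm38.p6, which run from 250 bases before to 50 bases after a start site and hold 300 bases. All 10 genes had a window, with 11 windows in all. *Socs3* was the only gene of the 10 whose window held the motif. That is 1 of the 11 windows, near the share of 8.30% over all 32851 promoter windows, so it is not a result about these genes as a list. The *Socs3* window lies on the minus strand at chr11:117969317-117969616, and its match, TTCTTAGAA at chr11:117969512-117969520, runs from 154 to 146 bases before the start site. The *Osmr* window lies on the minus strand at chr15:6874264-6874563 and the *Serpina3n* window on the plus strand at chr12:104406458-104406757. The *Socs3* window is shown because it holds the motif, and *Osmr* because its groups were separated. *Serpina3n* is shown because its fold change was the largest of the 10 in the main edgeR fit of all 6 libraries. It was not the largest without vehicle replicate 3. *Osmr* and *Serpina3n* were added after their values were seen. Capitals mark the motif, and each sequence is written from 5′ to 3′ on the strand of the gene. A match describes the letters of a window and does not show binding, and no match says only that these letters are not in this window.
Socs3: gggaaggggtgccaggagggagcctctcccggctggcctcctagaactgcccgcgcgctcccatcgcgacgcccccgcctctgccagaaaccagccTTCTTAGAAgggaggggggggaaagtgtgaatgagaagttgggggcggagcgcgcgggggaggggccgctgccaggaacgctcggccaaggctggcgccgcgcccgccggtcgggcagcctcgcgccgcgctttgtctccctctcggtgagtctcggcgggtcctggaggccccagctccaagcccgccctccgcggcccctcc
Osmr: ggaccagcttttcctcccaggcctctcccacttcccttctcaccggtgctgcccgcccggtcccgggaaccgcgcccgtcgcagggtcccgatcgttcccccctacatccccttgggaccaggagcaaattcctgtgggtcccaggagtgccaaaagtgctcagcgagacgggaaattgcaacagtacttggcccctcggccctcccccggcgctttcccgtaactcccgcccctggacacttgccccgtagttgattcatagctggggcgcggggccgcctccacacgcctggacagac
Serpina3n: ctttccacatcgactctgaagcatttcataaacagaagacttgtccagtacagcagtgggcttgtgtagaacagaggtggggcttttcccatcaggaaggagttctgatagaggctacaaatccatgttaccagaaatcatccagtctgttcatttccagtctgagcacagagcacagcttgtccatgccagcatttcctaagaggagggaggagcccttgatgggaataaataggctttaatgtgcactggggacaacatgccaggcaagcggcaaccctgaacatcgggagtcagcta

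BML-260 was compared with vehicle to ask which genes of the axis differ in aged muscle after treatment. *Osmr*, *Socs3*, *Bcl3* and *Serpina3n* were lower with BML-260 at a fold change of at least 1.3 and an unadjusted p under 0.05, a cutoff set for this comparison and called the volcano threshold here. None of the 10 genes was higher at that threshold. *Osmr* was the only gene of the 10 whose BML-260 libraries all lay below all vehicle libraries. *Il6st*, *Lifr*, *Jak1* and *Jak2* had log2 fold changes between -0.07 and 0.25, with overlapping groups.

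Among all 16188 genes tested with edgeR, 5.75% passed the volcano threshold, 4.86% with lower and 0.896% with higher levels with BML-260. Of the 10 genes, 4 passed it, all lower. At a Benjamini-Hochberg adjusted p under 0.05 the edgeR test called 0 of the 10 genes, against 0% of all genes tested, and 4 of the 10 had an unadjusted p under 0.05. DESeq2 and limma also called 0 of the 10 at an adjusted p under 0.05. Separated groups, in either direction, were seen for 12.1% of all genes tested, and for 6.70% with BML-260 below vehicle, so a count of 1 in 10 is near the background and is not a result about these genes as a list. The median log2 fold change of the 10 genes was -0.72, against -0.0039 over all genes tested, and 7 of 10 genes had a negative value. With vehicle replicate 3 left out, this median was -0.042.

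Distances between libraries were taken on log2 values of normalized counts. Vehicle replicate 3 stood apart, with a mean distance of 126 to the other libraries, against 88.1 to 97.0 for the other 5 libraries. It was the highest library for 7 of the 10 genes and for 32.3% of all genes tested. The fold changes of the 10 genes are therefore also given without it.

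**Figure D1:**
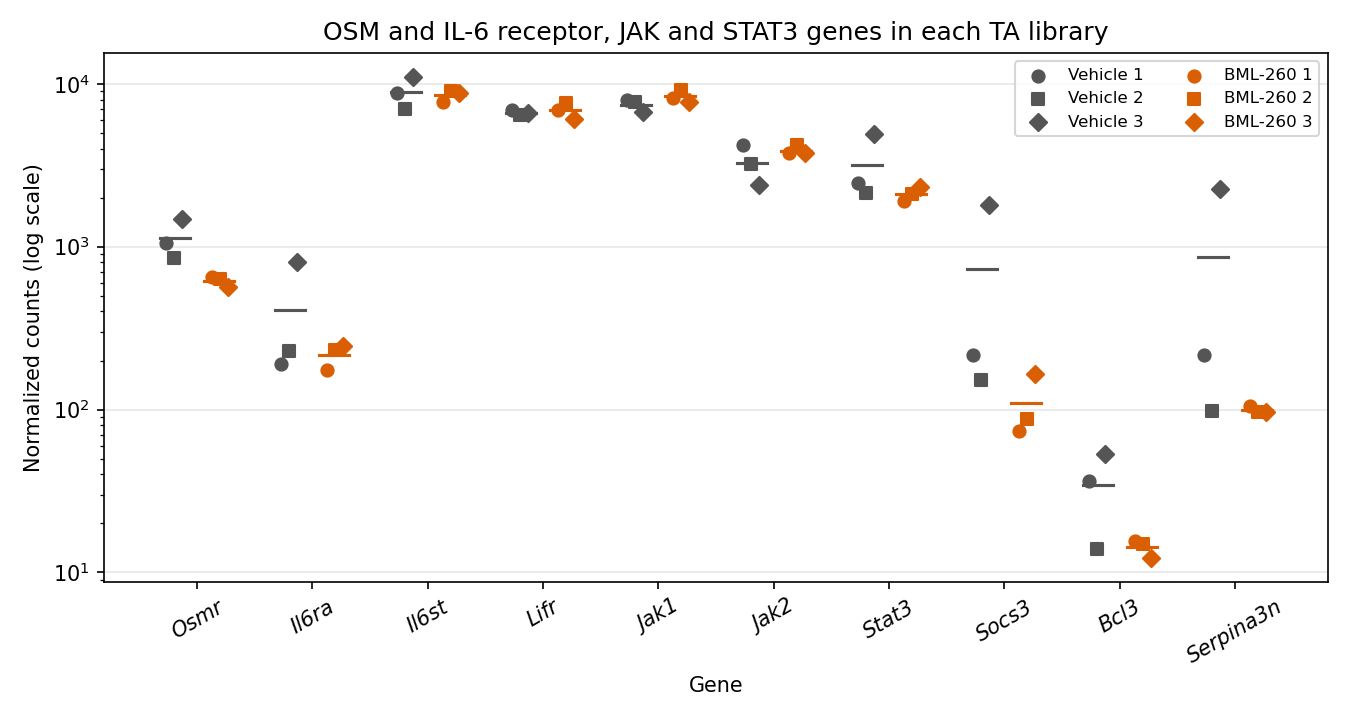
Normalized counts (log axis) of the 10 genes in each of the 6 libraries, with grey symbols for vehicle, orange symbols for BML-260 and horizontal lines for group means. *Osmr* is the only gene whose groups are separated, and vehicle replicate 3 is far above all other libraries for *Il6ra*, *Stat3*, *Socs3* and *Serpina3n*.

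*Osmr* (gene ID 18414, chr15:6813568-6874968, minus strand, mm10) encodes the oncostatin M receptor subunit. Its normalized counts, which are counts divided by the DESeq2 size factor of the library, were 1054, 858 and 1470 in vehicle replicates 1, 2 and 3, and 654, 633 and 566 in BML-260 replicates 1, 2 and 3. The lowest vehicle library was above the highest BML-260 library, and the BML-260 libraries lay close together. On average, vehicle muscle held 1127 ± 313 normalized counts (SD, n = 3), against 618 ± 46.2 (SD, n = 3) in treated muscle. Its log2 fold change was -0.87 with a standard error of 0.20 and a 95% interval from -1.33 to -0.41, which is 1.83-fold lower. This difference had an unadjusted p of 0.00225 and a Benjamini-Hochberg adjusted p of 0.598 in edgeR. Without vehicle replicate 3 the log2 fold change was -0.64, with the groups still separated and an unadjusted edgeR p of 0.00110. *Osmr* passed the volcano threshold in 15 of 15 alternative analyses, with adjusted p between 0.0533 and 0.984 in them (edgeR, DESeq2 or limma).

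TPM, which is scaled for transcript length, gave the same separation of *Osmr*. The values were 7.65, 5.87 and 14.7 in the vehicle libraries and 4.28, 4.71 and 4.14 in the BML-260 libraries. Vehicle replicate 3 was the highest on this scale too.

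*Il6ra* (gene ID 16194, chr3:89869324-89913196, minus strand) encodes the ligand-binding subunit for interleukin-6. Its normalized counts were 191, 227 and 804 with vehicle and 175, 231 and 244 with BML-260. Only vehicle replicate 3 was high, and the other 5 libraries overlapped. The log2 fold change of -0.91 (SE 0.50, 95% interval -2.06 to 0.24) did not pass the threshold, with an unadjusted p of 0.105 and an adjusted p of 0.788 in edgeR. The sign turned when vehicle replicate 3 was left out, to 0.047, and the gene passed the threshold when vehicle replicate 1 was left out, at -1.25.

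*Il6st* (gene ID 16195, chr13:112464070-112506860, plus strand), the gene of the shared subunit gp130, was at 8803, 6984 and 10998 normalized counts with vehicle and at 7722, 9076 and 8803 with BML-260. The BML-260 libraries all lay within the range of the vehicle libraries. Its log2 fold change was -0.07 (SE 0.19, 95% interval -0.50 to 0.37), and it was 0.11 without vehicle replicate 3.

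*Lifr* (gene ID 16880, chr15:7090610-7197489, plus strand), the gene of the receptor subunit for leukemia inhibitory factor, had the smallest range of the 10 genes over all 6 libraries. Its normalized counts were 6856, 6440 and 6573 with vehicle and 6916, 7618 and 6039 with BML-260, a range of 0.34 on the log2 scale. Without vehicle replicate 3 the range was 0.34 for *Lifr* and 0.25 for *Jak1*, which was then the smallest. Its log2 fold change was 0.05 (SE 0.15, 95% interval -0.29 to 0.38), and 0.04 without vehicle replicate 3.

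The balance of the receptor subunits that pair with gp130 was described by their shares of the summed TPM of *Osmr*, *Il6ra* and *Lifr*, a quantity chosen after the values were seen. *Lifr* held most of this sum in every library, from 56.8% to 79.8%. *Osmr* held 21.9%, 19.3% and 24.1% in the vehicle libraries and 14.8%, 13.2% and 14.0% in the BML-260 libraries. The *Osmr* share was thus lower in all BML-260 libraries, while that of *Il6ra* was 5.72%, 7.42% and 19.1% with vehicle and 5.74%, 6.96% and 8.85% with BML-260. *Il6st* exceeded the sum of the other subunits in every library, at 1.42 to 1.98 times the sum.

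**Figure D2:**
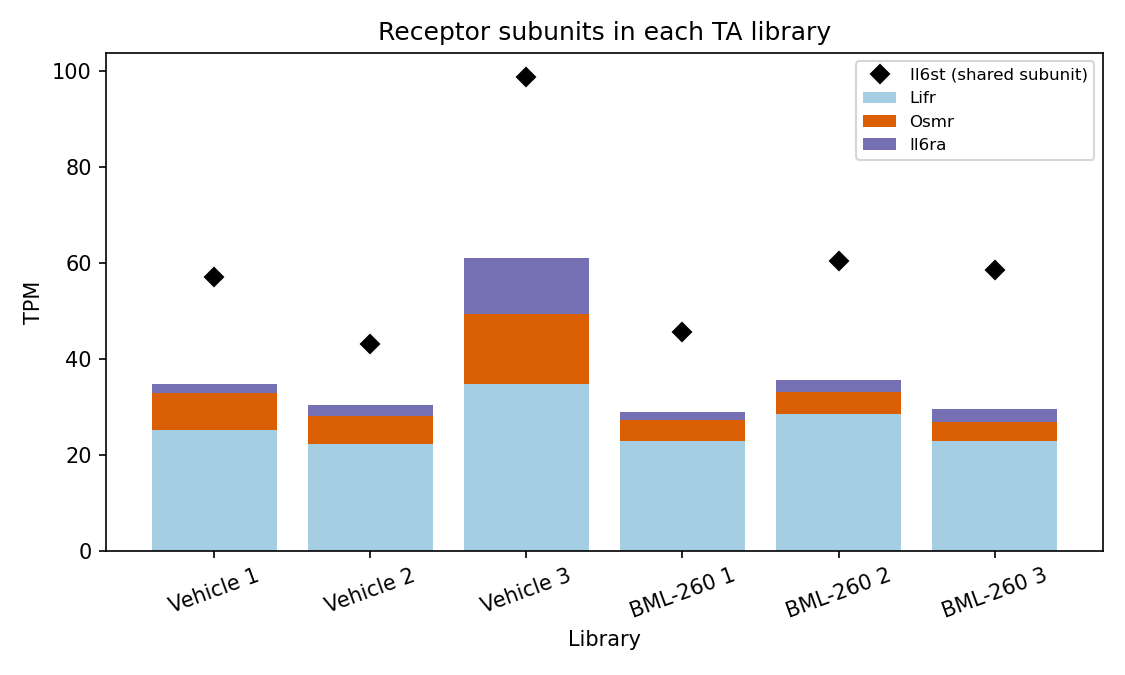
TPM of *Lifr*, *Osmr* and *Il6ra* stacked in each library, with *Il6st* as a black diamond. The *Osmr* part of the bar is between 4.14 and 4.71 TPM in the BML-260 libraries and between 5.87 and 14.7 TPM in the vehicle libraries.

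*Jak1* (gene ID 16451, chr4:101151974-101265282, minus strand), a tyrosine kinase bound to gp130, was at 7913, 7723 and 6736 normalized counts with vehicle and at 8201, 9184 and 7700 with BML-260. *Jak2* (gene ID 16452, chr19:29251803-29313095, plus strand), a second kinase of these receptors, was at 4186, 3226 and 2378 with vehicle and at 3734, 4183 and 3743 with BML-260. Both genes were lowest in vehicle replicate 3, and their groups overlapped. For *Jak1* the log2 fold change was 0.16 (SE 0.15, 95% interval -0.19 to 0.51), and 0.09 without vehicle replicate 3. For *Jak2* it was 0.25 (SE 0.21, 95% interval -0.23 to 0.73), and 0.06 without that library. *Jak2* was past the threshold, higher, only when vehicle replicate 1 was left out (0.47).

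*Stat3* (gene ID 20848, chr11:100886806-100939594, minus strand) encodes the transcription factor of the axis, which also acts on its own gene. Its normalized counts were 2457, 2122 and 4897 with vehicle and 1919, 2103 and 2321 with BML-260. Vehicle replicate 3 was above all other libraries, which overlapped between groups. The log2 fold change was -0.58 (SE 0.29, 95% interval -1.25 to 0.09), with an unadjusted p of 0.0819 and an adjusted p of 0.788 in edgeR. It was -0.12 without vehicle replicate 3, and it passed the threshold in DESeq2 and without vehicle replicate 2 (-0.80).

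*Socs3* (gene ID 12702, chr11:117966079-117970336, minus strand), the feedback inhibitor whose promoter window holds the STAT motif, was at 215, 151 and 1814 normalized counts with vehicle and at 74.3, 88.0 and 166 with BML-260. Vehicle replicate 3 was the highest by far, and BML-260 replicate 3 was above vehicle replicate 2, so the groups overlapped. With all libraries the log2 fold change was -2.74 (SE 0.90, 95% interval -4.79 to -0.69), with an unadjusted p of 0.0149 and an adjusted p of 0.743 in edgeR. Without vehicle replicate 3 it was -0.76, with an unadjusted edgeR p of 0.0447, still past the volcano threshold. *Socs3* passed it in 11 of 15 alternatives, and did not without BML-260 replicate 1 (-2.51) or BML-260 replicate 2 (-2.60).

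*Serpina3n* (gene ID 20716, chr12:104406646-104414334, plus strand) encodes a secreted inhibitor of serine proteases that is induced in the acute phase response. Its normalized counts were 217, 97.8 and 2276 with vehicle and 105, 96.0 and 96.5 with BML-260. Vehicle replicate 3 was far above the rest, vehicle replicate 1 was also above the BML-260 libraries, and vehicle replicate 2 lay among them. Its fold change on the log2 scale was -3.12 (SE 1.02, 95% interval -5.46 to -0.79), with an unadjusted p of 0.0147 and an adjusted p of 0.738 in edgeR. It was -0.69 without vehicle replicate 3, no longer past the threshold, with an unadjusted edgeR p of 0.0511. It passed in 8 of 15 alternatives, and not without BML-260 replicate 2 (-3.09) or BML-260 replicate 3 (-3.10). *Serpina3n* lies in a cluster of near-identical paralogs, and how reads shared among them were counted is not given in the sources used here, so its level is uncertain.

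*Bcl3* (gene ID 12051, chr7:19808462-19822824, minus strand), an atypical member of the IκB family that binds NF-κB subunits in the nucleus, was the weakest of the 10 genes. It had 38, 11 and 71 raw counts in the vehicle libraries and 18, 15 and 10 in the BML-260 libraries. After normalization these were 36.2, 14.0 and 53.1 against 15.6, 15.0 and 12.2, so vehicle replicate 2 lay among the BML-260 libraries. In log2 terms the change was -1.28 (SE 0.53, 95% interval -2.49 to -0.07), with an unadjusted p of 0.0411 and an adjusted p of 0.788 in edgeR. Leaving out any library except vehicle replicate 2 took *Bcl3* below the threshold, at -0.83 without vehicle replicate 3 and at -1.34 to -1.18 without the others, and it passed in 5 of 15 alternatives. An overlapping noncoding gene, *Gm16174*, had 0 to 14 counts, and whether strand was used in counting is not given in the sources used here, so reads of the pair may not be told apart.

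**Figure D3:**
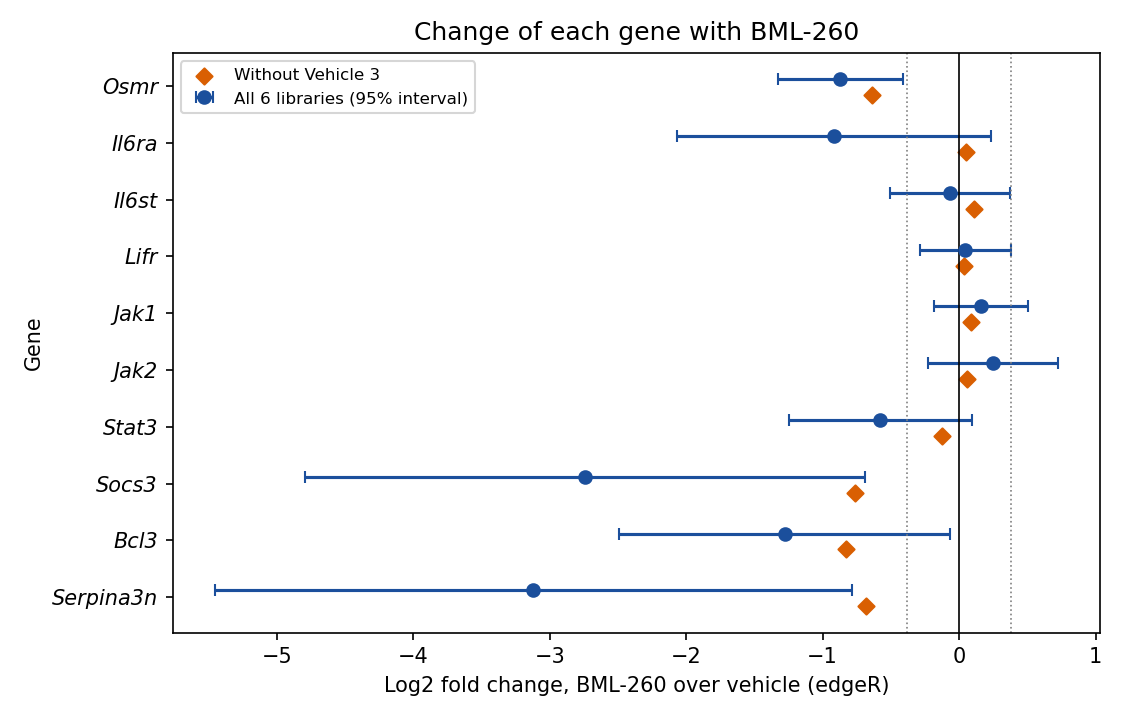
Log2 fold change of each gene, BML-260 over vehicle, with its 95% interval from edgeR over all 6 libraries (blue) and the value without vehicle replicate 3 (orange diamonds), with dotted lines at 1.3-fold. *Osmr* moves from -0.87 to -0.64 without that library, while *Socs3* moves from -2.74 to -0.76 and *Serpina3n* from -3.12 to -0.69.

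Levels were compared between genes on the TPM scale. With vehicle, mean TPM ran from *Il6st* (66.3 ± 28.9, SD, n = 3) and *Jak1* (56.4 ± 8.22) through *Stat3* (29.4 ± 20.6), *Lifr* (27.4 ± 6.47) and *Jak2* (26.6 ± 4.17) to *Serpina3n* (19.5 ± 29.2), *Socs3* (12.2 ± 17.2), *Osmr* (9.40 ± 4.66), *Il6ra* (5.30 ± 5.50) and *Bcl3* (0.780 ± 0.594). Only the last neighbours in this order, *Il6ra* and *Bcl3*, did not overlap between libraries. With BML-260 *Jak1* and *Il6st* were again the highest, with *Jak1* at 53.2, 63.9 and 54.0 TPM in the 3 libraries and *Il6st* at 54.8 ± 8.10 TPM. They were followed by *Jak2* (28.8 ± 5.16), *Lifr* (24.7 ± 3.23), *Stat3* (16.4 ± 2.53), *Osmr* (4.38 ± 0.294) and *Il6ra* (2.25 ± 0.518). *Serpina3n* was at 1.61 ± 0.0372, *Socs3* at 1.41 ± 0.702 and *Bcl3* at 0.261 ± 0.0265 TPM. In this group *Jak1* and *Il6st*, *Jak2* and *Lifr*, and *Serpina3n* and *Socs3* overlapped, and the other neighbours did not.

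The patterns over the 6 libraries were compared by the Euclidean distance between centred log2 values of normalized counts (plus 1), as a description. *Lifr* and *Jak1* were the closest pair, at 0.236. *Osmr* was nearest to *Stat3* among the 10 genes, at 0.676, and *Socs3* was at 1.15 from *Serpina3n*. The largest distance, 4.62, was between *Jak2* and *Serpina3n*. The log2 range over libraries was 4.59 for *Socs3* and 4.55 for *Serpina3n*, and 1.52 and 1.17 without vehicle replicate 3.

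Among all genes with a mean of at least 100 normalized counts, the 5 nearest to *Osmr* over the 6 libraries were *Fosl2* (an AP-1 subunit), at a distance of 0.336, *Dpy19l1* at 0.347, *Csf1r* (the receptor for macrophage colony-stimulating factor) at 0.355, *Arfgap3* at 0.371 and *Anxa4* at 0.375. They were chosen for their likeness to *Osmr* over the same libraries, so their lower values with BML-260 (log2 fold changes from -0.86 to -0.60, groups separated) follow from that choice. *Csf1r*, which marks macrophages, was at 833, 939 and 1393 normalized counts with vehicle and at 618, 560 and 565 with BML-260.

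The ligands of the gp130 family were near the limit of detection. *Il6* had 0, 3 and 75 raw counts with vehicle and 0, 8 and 5 with BML-260, and *Osm*, the ligand of OSMR, had 15, 0 and 64 with vehicle and 7, 0 and 4 with BML-260. Both were highest in vehicle replicate 3, and neither reached the number of counts needed for the test. Of the 10 ligand genes 5 were tested and 0 passed the volcano threshold in edgeR, with 0 at an unadjusted p under 0.05, 0 past it in DESeq2 and 1 in limma voom, and with a median log2 fold change of 0.29. *Il11*, *Il27* and *Ebi3* were too low to test. *Ctf1*, the gene of cardiotrophin-1, was at 137, 142 and 102 normalized counts with vehicle and at 133, 176 and 158 with BML-260, for a log2 fold change of 0.29 (SE 0.23). In edgeR, log2 fold changes were 0.61 for *Lif*, -0.02 for *Cntf* and -0.72 for *Clcf1*, none past the threshold. *Lif*, with at most 18 raw counts in a library, was the ligand past it in limma voom, at 2.38.

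Of 10 other receptors of the gp130 family or coupled to STAT3, 9 were tested and 2 passed the threshold, both lower with BML-260, with a median of -0.55. *Csf3r*, the receptor for granulocyte colony-stimulating factor and a gene of neutrophils, was at 173, 47.0 and 193 normalized counts with vehicle and at 17.3, 10 and 58.7 with BML-260. BML-260 replicate 3 lay above vehicle replicate 2, and the log2 fold change was -2.30 (SE 0.71). With a library left out it ran from -3.32 (without BML-260 replicate 3) to -1.87 (without BML-260 replicate 2). *Il4ra*, a subunit of the interleukin-4 and interleukin-13 receptors, had a log2 fold change of -0.98 (SE 0.34), and -0.53 without vehicle replicate 3.

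Of 8 other JAK and STAT genes, all tested, 0 passed the threshold in edgeR, with 0 at an unadjusted p under 0.05 and 1 past the threshold in DESeq2. Their median log2 fold change was -0.01. *Stat5b*, the most abundant of them, had a log2 fold change of 0.39 (SE 0.18), with overlapping groups.

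Of 17 inhibitors of JAK-STAT signaling, all tested, 3 passed the threshold lower and 1 higher with BML-260, with a median of -0.10. *Cish*, a SOCS family gene induced by STAT5, was at 315, 433 and 387 normalized counts with vehicle and at 226, 84.0 and 123 with BML-260. Its groups were separated, and its log2 fold change was -1.38 (SE 0.34), and -1.36 without vehicle replicate 3. The Benjamini-Hochberg adjusted p of *Cish* was 0.631 in edgeR and 0.0314 in DESeq2, and it ran from 0.0314 to 0.984 over the alternatives. *Ptprc*, the gene of the leukocyte phosphatase CD45, was at 400, 497 and 708 with vehicle and at 301, 309 and 224 with BML-260, also separated, with a log2 fold change of -0.95 (SE 0.24). *Socs7* was higher with BML-260 at a log2 fold change of 0.45 (SE 0.14), with separated groups, and *Socs2* was lower at -0.51 (SE 0.22), or -0.28 and not past the threshold without vehicle replicate 3. *Cish* and *Ptprc* passed the threshold in 15 of 15 alternatives, *Socs7* in 13 and *Socs2* in 5.

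Of 26 known STAT3 targets and acute phase genes, 22 were tested, and 12 passed the threshold, all lower with BML-260, with a median of -0.80. Vehicle replicate 3 was the highest library for 19 of the 22, and 5 passed without it. Groups were separated, with BML-260 lower, for 7 of the 22 (*Junb*, *Timp1*, *Lcn2*, *Lrg1*, *Mt1*, *Mt2* and *Icam1*). *Mt2* and *Mt1*, the metallothioneins, had log2 fold changes of -4.20 (SE 1.20) and -3.32 (SE 1.08), and -1.34 and -0.60 without vehicle replicate 3. *Icam1*, an adhesion molecule, was at 151, 211 and 385 normalized counts with vehicle and at 95.9, 109 and 120 with BML-260. Its groups were separated, with a log2 fold change of -1.20 (SE 0.34) and -0.74 without vehicle replicate 3. *Timp1*, a metalloprotease inhibitor, also had separated groups, at 35.3, 40.7 and 142 against 24.2, 11 and 17.1 normalized counts, and a log2 fold change of -2.05 (-1.11 without vehicle replicate 3). The other genes of this group past the threshold were *Junb* (-2.16) and *Fos* (-2.18) of AP-1, the secreted acute phase genes *Lcn2* (-3.60), *Hp* (-3.22) and *Lrg1* (-0.75), the chemokine gene *Ccl2* (-3.08), *Hif1a* (-0.43) and *Il1r1* (-0.50), all as log2 fold changes. With vehicle replicate 3 left out, *Junb* was still past it (-0.85), while *Fos* (-0.37), *Hp* (-0.59), *Ccl2* (-0.77), *Hif1a* (-0.32), *Lcn2* (-0.99), *Lrg1* (-0.44) and *Il1r1* (-0.41) were not.

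Of 9 genes for NF-κB subunits and IκB proteins, all were tested and 2 passed, both lower, with a median of -0.13. *Nfkb2* had a log2 fold change of -0.49 (SE 0.19). *Nfkbiz*, like *Bcl3* an atypical IκB gene, had -1.17 (SE 0.49), and -0.30 without vehicle replicate 3. Of 10 other genes of the *Serpina3* cluster only *Serpina3c* and *Serpina3g* were tested, and *Serpina3g* passed. It had 15, 10 and 19 raw counts with vehicle and 4, 0 and 0 with BML-260. Only the vehicle libraries carried *Serpina3g* past the count filter, so its call is not read as a result. With at least 10 counts required in every library, 0 genes of the cluster passed. *Serpina3m* had 14, 0 and 185 raw counts with vehicle and 0, 2 and 0 with BML-260, again highest in vehicle replicate 3. Counts of these paralogs are uncertain for the reason given for *Serpina3n*.

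**Figure D4:**
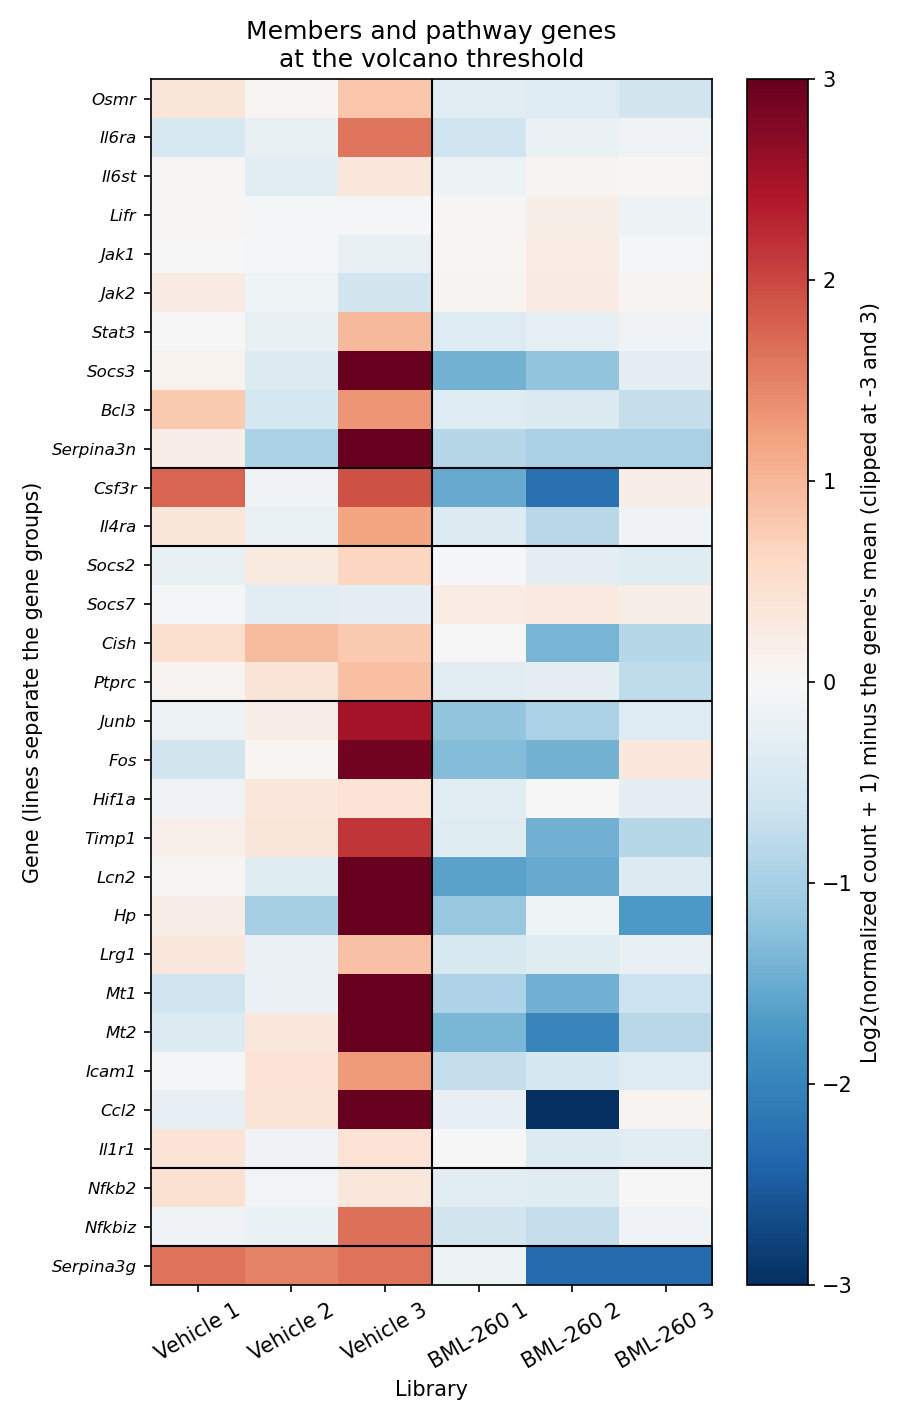
Log2 normalized count (plus 1) minus the gene's mean in each library, for the 10 genes and for the pathway genes past the volcano threshold, with black lines between gene groups and between treatments. Vehicle replicate 3 holds the highest values of *Socs3*, *Serpina3n*, *Mt1*, *Mt2*, *Lcn2* and *Hp*. *Osmr*, *Cish*, *Ptprc*, *Mt1*, *Mt2* and *Lcn2* are among the genes that are higher in all vehicle libraries than in all BML-260 libraries.

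Markers of other cells were highest in the same library. Summed TPM of 8 macrophage markers was 129, 128 and 545 with vehicle and 88.5, 80.0 and 97.8 with BML-260, and 7 of the 8 passed the threshold lower (*Cd68* did not, at a log2 fold change of 0.00). The summed macrophage level was thus lower in all BML-260 libraries than in all vehicle libraries, as *Osmr* was. The neutrophil and denervation sums given below were separated in the same way, so this trait is not particular to macrophage markers. For neutrophils, 3 marker genes were tested and all passed the threshold lower. The 2 with TPM values summed to 163, 23.3 and 797 with vehicle and 7.24, 6.60 and 11.4 with BML-260. *Retnlg*, the tested gene without TPM values, had 116, 12 and 551 raw counts with vehicle and 0, 0 and 10 with BML-260. The vehicle libraries carried *Retnlg* past the count filter, so its call is not read as a result. *Ngp*, a neutrophil granule gene, had 8, 0 and 1036 raw counts with vehicle and 0 in each BML-260 library. Summed TPM of 5 erythroid genes was 1949, 2128 and 8752 against 1646, 1619 and 2162, and 3 of the 5 passed lower.

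Of 8 fibroblast markers 1 passed the threshold, with summed TPM of 673, 349 and 933 with vehicle and 603, 457 and 381 with BML-260. Of 7 endothelial markers 0 passed in edgeR, and 0 had an unadjusted p under 0.05, with summed TPM of 68.5, 70.0 and 102 against 60.8, 62.6 and 81.1. None of 8 lymphocyte markers had enough counts to be tested, with at most 22 counts in a library. Muscle fiber genes, which check the labelled tissue, summed to 98737 to 115620 TPM with vehicle and 103052 to 126259 with BML-260, and 0 of 8 passed in edgeR or had an unadjusted p under 0.05.

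Of 7 denervation genes 5 passed lower, and the summed TPM of those listed was 25.6, 242 and 149 with vehicle and 10.7, 16.6 and 12.0 with BML-260. Of 6 satellite cell and regeneration genes 3 passed lower with separated groups (*Myog*, *Myh3* and *Myod1*), while *Pax7* was at a log2 fold change of 0.02, *Myh8* at 0.17 and *Myf5* at -0.20. Their summed TPM overlapped between groups, at 133, 198 and 217 with vehicle and 132, 146 and 190 with BML-260, and *Myh8* alone held 101, 157 and 129 TPM against 109, 128 and 164 of it. The denervation sum was lower in all BML-260 libraries than in all vehicle libraries. Within the vehicle group that sum was highest in replicate 2, where *Socs3* and *Serpina3n* were lowest. *Sln* alone held 12.5, 208 and 114 TPM of that sum with vehicle and 4.99, 9.58 and 3.92 with BML-260. The part of these cell types, of denervation and of vehicle replicate 3 in the values of the 10 genes was not tested.

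**Figure D5:**
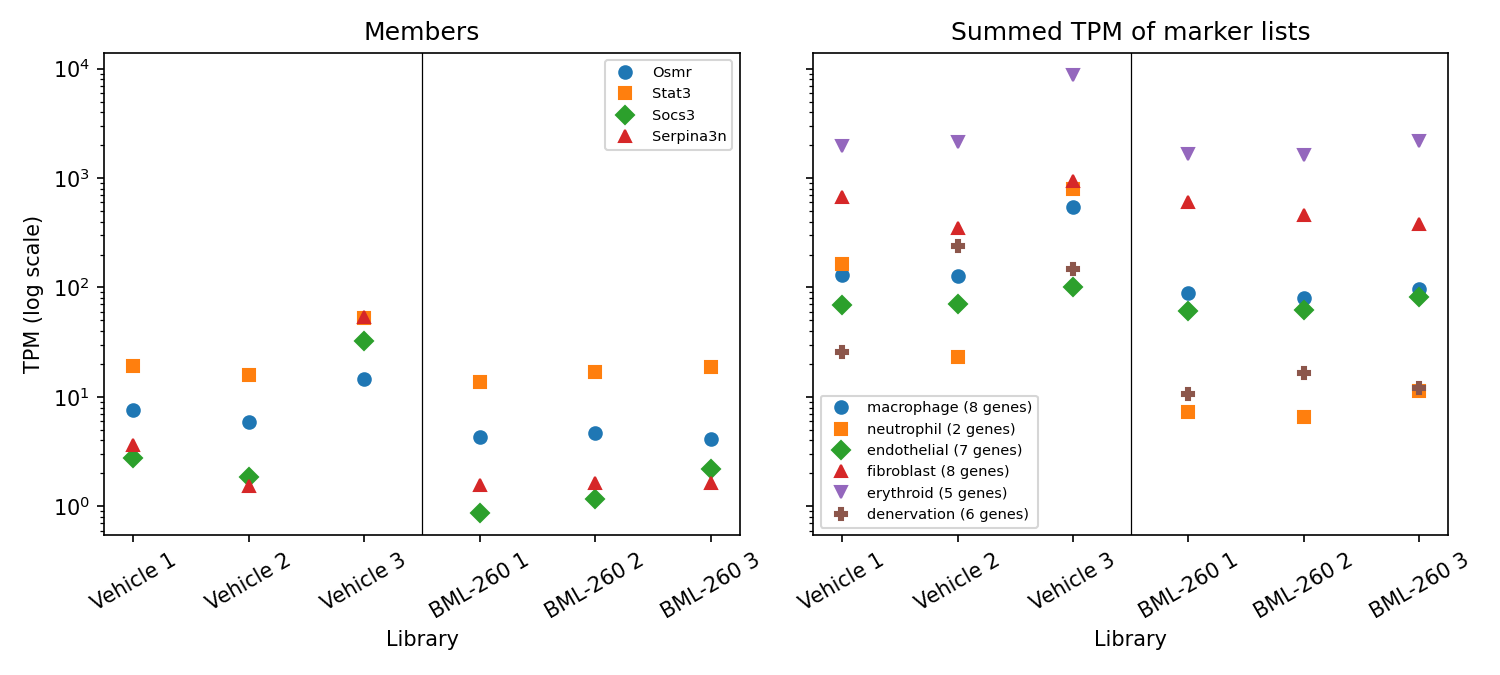
TPM (log axis) in each library of *Osmr*, *Stat3*, *Socs3* and *Serpina3n* (left) and summed TPM of marker lists for 6 cell types or states (right), with the vertical line between treatments. Vehicle replicate 3 holds the highest sums of the macrophage, neutrophil and erythroid markers and the highest values of all 4 genes.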

How the data were processed

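RNA-Seq of TA muscle from 3 vehicle and 3 BML-260 mice (TruSeq Stranded Total RNA Gold kit) was processed by the authors with Trimmomatic 0.38, StringTie 2.1.3b, HISAT2 2.1.0 and, also named in the processing notes, Bowtie2 2.3.4.1, on mm10 per the labels. The authors deposited raw counts per gene, without normalization, and a TPM table for each library (scaled for transcript length and total). The strand setting and the handling of multi-mapped reads are not given in the sources used here. The 10 genes and the pathway and marker lists were chosen with earlier results of these data known.

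The test was edgeR's quasi-likelihood F-test (edgeR 4.0.16, R 4.3.3) with TMM scaling. The 16188 genes left by filterByExpr (99.9% of counts) were fitted together, and p-values were adjusted over all of them by Benjamini-Hochberg. The log2 fold change is BML-260 over vehicle, and its standard error was obtained from the F statistic (absolute value over the root of F). Normalized counts are counts over DESeq2 1.42.0 size factors. The 6 libraries allow 10 splits, so an exact permutation test of a single value cannot give a p under 0.1. The fit was tested on simulated counts, with the same spread setting for all genes and no library standing apart. That simulation does not cover a library like vehicle replicate 3. P-values measure the spread between 3 mice per group. The genes named are the 10 genes, list genes past the threshold, the gp130 ligands (1 is not reported here) and the 5 genes nearest to *Osmr*, and other list genes (*Stat5b*, *Serpina3c*, *Serpina3m*, *Cd68*, *Ngp* and the regeneration genes) were named after their values were seen. Gene positions and names are those of RefSeq GRCm38.p6, in which 45679 of 45777 gene IDs were found.

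Alternatives were RLE and upper quartile scaling, no filter, at least 10 counts in every library, the replicate number as a block, DESeq2, limma 3.58.1 voom with sample weights, limma on log2(TPM + 1) and log2(TPM + 0.1), and leaving out each library.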

Additional observations from a re-analysis of the deposited data

How the results depend on the processing

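*Osmr* was past the volcano threshold under all 15 alternatives, and *Jak1* and *Jak2* kept their sign. The sign of *Il6st* turned with limma voom (0.098), and over the fits that leave out a library it ran from -0.21 to 0.11. *Lifr* turned on log2(TPM + 1) (-0.12) and log2(TPM + 0.1) (-0.13) and ran from -0.029 to 0.13 when a library was left out. The latter scale also shifted the median of all genes, to -0.14. With a library left out, *Il6ra* ran from -1.25 to 0.047 and *Cntf* from -0.54 to 0.54.

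Of the 10 genes, 4 passed the threshold in the main analysis, 2 with limma voom, 1 on either TPM scale, and 1 to 5 with a library left out (2 without vehicle replicate 3, 1 without BML-260 replicate 2). Their median was -0.22 with voom and ran from -0.91 to -0.042 with a library left out. Of the 10 genes, those with separated groups numbered 1 to 5 with a library left out. The share over all genes was taken only with all 6 libraries, so these counts have no background and are not a result. Over all genes, 931 passed, 1416 without a filter, 446 on log2(TPM + 1), and 503 to 2223 with a library left out (2223 without vehicle replicate 1, 503 without BML-260 replicate 2). Lower genes were 84.4% of those past the threshold, 71.3% with voom, 62.4% without vehicle replicate 1 and 73.4% without vehicle replicate 3. At an adjusted p under 0.05, DESeq2 called 84 genes where edgeR called 0.

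STAT3 targets past the threshold (12) numbered 7 with DESeq2, 6 with voom, 2 on log2(TPM + 1), 4 on log2(TPM + 0.1) and 5 to 14 with a library left out. Inhibitors (4) numbered 2 on log2(TPM + 1). Ligands (0) numbered 1 with voom and 0 to 1 with a library left out, other receptors (2) 1 to 4, and other JAK and STAT genes (0) 1 with DESeq2 and 0 to 2. NF-κB genes (2) numbered 1 with voom, 0 on either TPM scale and 0 to 2 with a library left out. *Serpina3* genes (1) numbered 4 without a filter, 0 at 10 counts in every library, 3 with DESeq2, 0 on either TPM scale and 1 to 2 with a library left out. The cause of these shifts was not tested.

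With the replicate number as a block, 2 of the 10 genes passed the threshold and 1057 genes in all, 69.2% of them lower. Correlations of deviations between libraries of the same number were 0.137, 0.0514 and 0.101, and those between different numbers ran from -0.106 to -0.0154. Thus 6 of 6 libraries correlated best with their own number, which counts each pair from both sides. That is a hint from the data and not the design. The labels give these libraries only a shared number, and whether it marks a pair was not tested. Low counts limit *Bcl3*, *Il6*, *Osm* and *Serpina3g*.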
